A study of Mus musculus with 20 samples.

Results

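Marker genes of the macrophages of the liver were followed in mice that could or could not make cysteine. The 10 genes were chosen by name, as markers of Kupffer cells (*Clec4f*, *Cd5l*, *Marco*, *Vsig4*, *Timd4* and *Cd163*), of macrophages in general (*Adgre1*, *Cd68* and *Csf1r*) and of monocytes (*Ccr2*). They are 10 of the 46078 rows of the table of counts, and all 10 were among the 14759 genes with enough counts for a test.

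RNA-seq of whole liver was compared between mice without cystathionine γ-lyase, the last enzyme of cysteine synthesis, and their controls, after cysteine or tryptophan had been taken out of the diet. All mice were male, at least 9 weeks old and on a mixed 129 and C57BL/6 background. They received a calorie-restricted control diet for 3 days, were then shifted to another calorie-restricted diet, and their livers were taken after 2 days. Diets without cysteine (no-Cys) or without tryptophan (no-Trp) were based on the same defined amino acid diet as the control diet. The knockout livers were *Cse*-/- mice on no-Cys (n = 4), on no-Trp (n = 3) and on no-Trp with BSO (n = 4). BSO is l-buthionine sulfoximine, which blocks γ-glutamyl cysteine synthase and so the synthesis of glutathione. The control livers were *Cse*+/- mice on no-Cys (n = 4), on no-Trp (n = 3) and on the control diet (n = 2), and knockout livers from that diet were not analysed here. The sample labels call the control genotype WT, whereas the study's list of mice calls it heterozygous. Mice are named by their numbers in that list.

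Kupffer cells are macrophages that sit inside the sinusoids of the liver, where they take up bacteria, lipoproteins, dying cells and worn-out red blood cells. They arise before birth, renew themselves in place and can be told from other macrophages by a small set of surface receptors. When they are lost, monocytes that carry the chemokine receptor CCR2 enter from the blood and take on the same receptors step by step, and signals through the receptor CSF1R keep all of these cells alive.

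The sequences in front of 4 of these genes are shown here because the genes took different courses in the results. *Cd163* was higher in *Cse*-/- no-Cys livers, whereas *Cd5l* varied with *Vsig4* and with *Marco* from liver to liver, and *Marco* varied most within groups. Each line gives the 250 bases before the gene's start, 5′ to 3′ on the gene's own strand, from RefSeq on GRCm38.p6. Capitals mark GAGGAA or its reverse complement, the core letters bound by PU.1, the main transcription factor of macrophages.
Cd163: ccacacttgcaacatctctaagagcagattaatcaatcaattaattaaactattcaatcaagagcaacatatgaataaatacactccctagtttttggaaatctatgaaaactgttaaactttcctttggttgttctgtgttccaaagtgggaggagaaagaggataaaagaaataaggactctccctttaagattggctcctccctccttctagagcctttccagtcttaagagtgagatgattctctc
Vsig4: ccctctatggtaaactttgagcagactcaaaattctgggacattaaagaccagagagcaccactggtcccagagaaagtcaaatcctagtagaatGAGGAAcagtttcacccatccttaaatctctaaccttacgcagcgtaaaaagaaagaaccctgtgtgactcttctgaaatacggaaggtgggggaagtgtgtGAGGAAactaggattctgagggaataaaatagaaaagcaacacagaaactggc
Cd5l: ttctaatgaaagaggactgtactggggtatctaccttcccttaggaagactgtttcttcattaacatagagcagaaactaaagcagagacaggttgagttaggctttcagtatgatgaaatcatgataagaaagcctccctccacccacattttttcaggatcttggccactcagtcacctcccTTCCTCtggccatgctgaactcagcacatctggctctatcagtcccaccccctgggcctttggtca
Marco: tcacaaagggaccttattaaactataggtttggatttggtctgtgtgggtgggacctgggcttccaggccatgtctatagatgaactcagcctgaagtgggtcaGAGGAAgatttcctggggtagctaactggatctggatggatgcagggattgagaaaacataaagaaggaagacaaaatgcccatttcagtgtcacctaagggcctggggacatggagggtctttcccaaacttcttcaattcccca
These stretches are chr6:124304401-124304650 on the plus strand for *Cd163*, chrX:96293439-96293688 on the minus strand for *Vsig4*, chr3:87357631-87357880 on the plus strand for *Cd5l* and chr1:120505025-120505274 on the minus strand for *Marco*. Sequences of this kind were matched for 8 of the 10 markers, *Adgre1* and *Csf1r* being the others. For *Ccr2* and *Clec4f* the RefSeq start lies inside the gene coordinates given below. Their stretches are thus in part not upstream by those coordinates. On both strands, GAGGAA occurred 2 times for *Vsig4*, 1 time each for *Cd5l*, *Marco* and *Cd68*, and 0 times for *Cd163*, *Clec4f*, *Timd4* and *Ccr2*. It was thus found for 4 of 8 markers, and it occurred in 23.1% of all 27025 stretches of this length. TGACNNNGC, the core of the antioxidant response element, was found for *Clec4f* alone among the 8 and in 10.1% of all stretches. TTGCNNAA, letters bound by C/EBP factors, and TGANTCA, letters bound by AP-1, were found for *Cd68* alone, against 9.55% and 6.87% of all stretches. No pair of these motifs shared bases in *Cd68*. A match describes the letters and is not a binding site, and its absence says only that these letters do not occur in this window.

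Counts on genes ranged from 11785740 to 57986121 per library, with a median of 15252745. The targeted gene, listed as *Cth*, lay between 6.37 and 14.4 CPM (counts relative to the TMM-scaled size of each library) in the 11 *Cse*-/- livers and between 88.4 and 332 CPM in the 9 *Cse*+/- livers, as the labels have it. The hepatocyte marker albumin (*Alb*) was at 25510 CPM or more in every library. In the *Cse*-/- no-Cys group, mouse av08 stood apart from the other 3 over all genes, since the chi-square of its counts against each of them was 43.3 to 48.9 a gene, and that among those 3 was 9.60 to 16.3. Pairs of *Cse*+/- no-Cys livers had 15.1 to 49.8. Values as high as those of av08 also occurred in other groups, with 31.9 to 64.2 for *Cse*-/- no-Trp and 34 to 49.7 for *Cse*+/- no-Trp pairs. Leaving out av08 moved the genes called by edgeR from 406 to 1027 between no-Trp + BSO and no-Cys and from 1535 to 1855 between no-Cys and no-Trp in *Cse*-/- mice, and from 3515 to 3500 between genotypes on no-Cys, so that values without it are given where a call of a marker turned on it.

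To set the markers against each other, CPM were divided by the length of each gene's exons. *Cd5l* and *Clec4f* were the most abundant, at 38.0 ± 6.48 and 37.4 ± 5.36 CPM per kb (SD, n = 20 livers). They did not differ beyond their spread. *Vsig4* followed at 12.6 ± 1.67 CPM per kb. *Csf1r* and *Cd68* lay close together at 6.93 ± 0.875 and 6.5 ± 1.13 CPM per kb. *Marco*, *Cd163* and *Adgre1* overlapped at 4.08 ± 2.23, 3.46 ± 0.780 and 3.27 ± 0.869 CPM per kb. *Timd4* stood at 2.32 ± 0.649 CPM per kb. *Ccr2*, the monocyte marker, was the lowest at 0.155 ± 0.0616 CPM per kb and rested on 4 to 45 counts per library. The genes that mark resident Kupffer cells thus gave far more RNA per length than the gene that marks incoming monocytes.

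**Figure D1:**
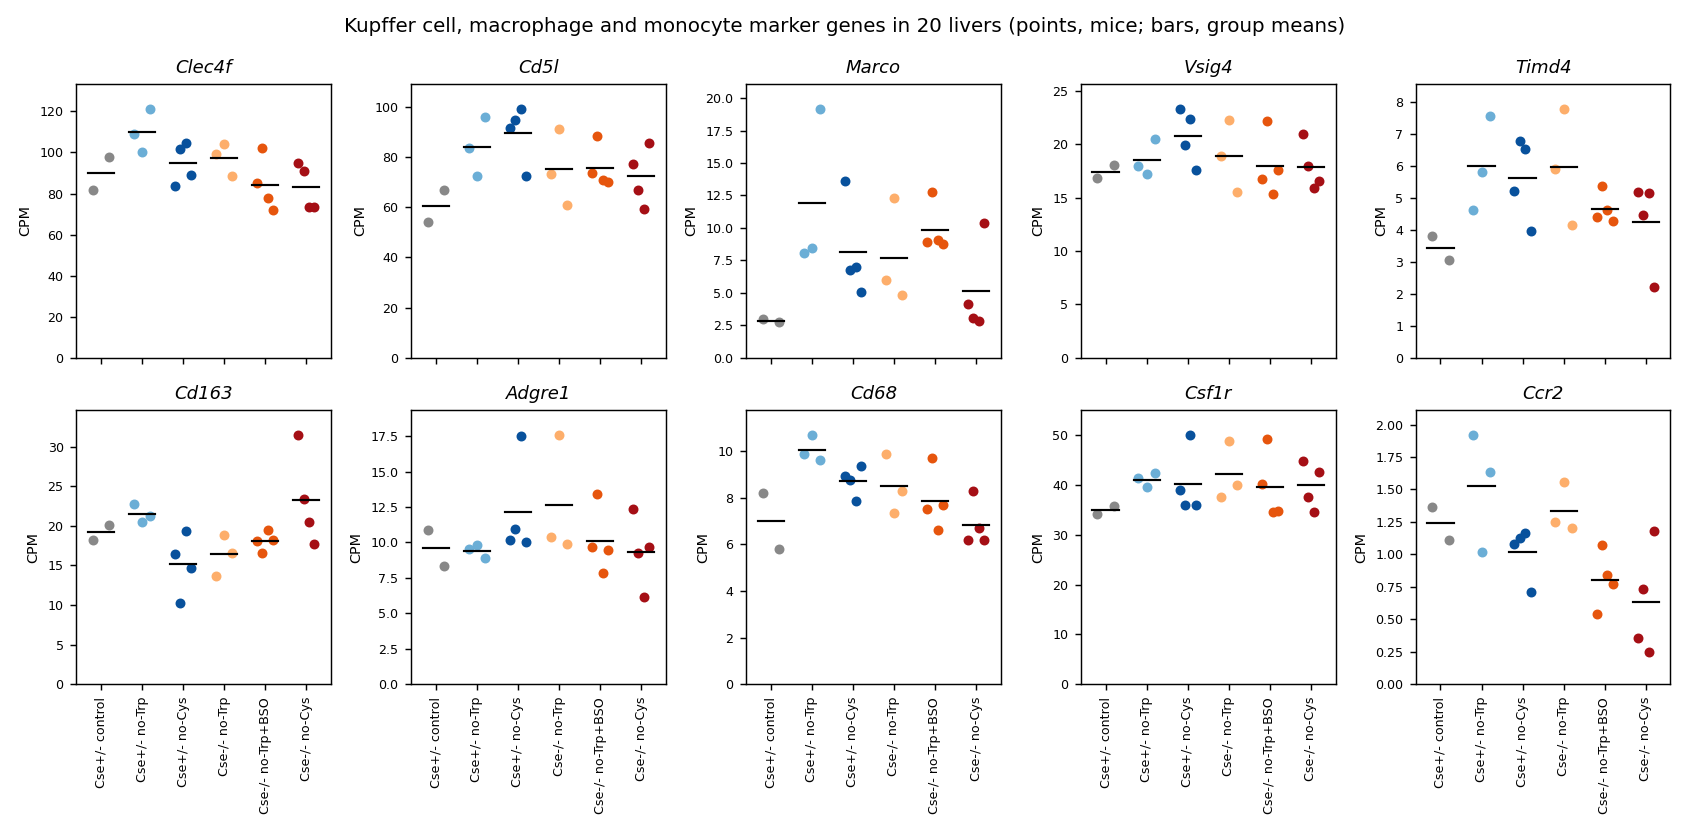
CPM (vertical axis, from 0) of each of the 10 marker genes in each of 20 livers (points) with the group mean (bar), for *Cse*+/- mice on control (grey), no-Trp and no-Cys diets (blue) and *Cse*-/- mice on no-Trp, no-Trp + BSO and no-Cys diets (orange to red). The groups overlap for most genes, *Cd163* is highest in a *Cse*-/- no-Cys liver (31.5 CPM), and *Marco* spans 2.72 to 19.2 CPM.

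The first question was whether cysteine loss, which the no-Cys diet was used to bring about in *Cse*-/- mice, went with a change in these markers. On no-Cys, 1 of the 10 markers passed the test (*Cd163*, higher in *Cse*-/-), where 23.8% of all genes tested did, 11.6% being higher and 12.2% lower. The other 9 markers had log2 fold changes below 0 and did not pass. The median log2 fold change of the 10 markers was -0.33, against -0.00928 over all genes tested, and 3 markers (*Cd163*, *Cd68* and *Cd5l*) had an unadjusted p under 0.05, as 36.2% of all genes had. The ranges of the groups overlapped for 10 of 10 markers, where they did not overlap for 12.0% of all genes that were higher and 11.2% that were lower. In bulk liver, a lower level may come from fewer cells or from less RNA per cell, and these cannot be told apart.

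*Cd163* encodes the scavenger receptor by which macrophages take up complexes of haemoglobin and haptoglobin. The gene (ENSMUSG00000008845) lies on the plus strand of chromosome 6 of GRCm38 from 124304656 to 124330527 and has 16 exons. In *Cse*-/- no-Cys livers it was at 31.5, 23.4, 20.4 and 17.7 CPM in mice av05 to av08. In *Cse*+/- no-Cys livers it was at 16.5, 10.3, 19.3 and 14.7 CPM in mice av01 to av04. All but the lowest *Cse*-/- liver lay above all *Cse*+/- livers, and the lowest lay below the highest *Cse*+/- liver, so that the groups overlapped. The level was 23.2 ± 5.95 CPM (SD, n = 4) against 15.2 ± 3.77 CPM (SD, n = 4), and the log2 fold change was 0.62 ± 0.170 (SE, 95% interval 0.26 to 0.98, edgeR adjusted p = 0.0122). The call changed with the mice and with the groups held in the fit. Without mouse av05 the log2 fold change was 0.45 and the adjusted p 0.0575, and with the 2 groups fitted alone these were 0.62 and 0.0554.

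On the no-Trp diet the values of the same receptor lay the other way round. *Cd163* was at 13.7, 18.9 and 16.6 CPM in *Cse*-/- no-Trp livers and at 22.8, 20.4 and 21.2 CPM in *Cse*+/- no-Trp livers. All *Cse*-/- livers were below all *Cse*+/- livers, with a log2 fold change of -0.39 ± 0.191 that did not pass the test (edgeR adjusted p = 0.279). The difference between the genotype effects on the 2 diets was itself tested and was 1.01 ± 0.256 on the log2 scale for *Cd163* (95% interval 0.48 to 1.55, edgeR adjusted p = 0.0288). It was the only marker of the 10 called in that test, in which 4.36% of all genes were called and 1.67% were higher, and 2 markers, *Cd163* and *Adgre1*, had an unadjusted p under 0.05, as did 19.4% of all genes. The other 9 markers had values from -0.79 (*Adgre1*) to -0.01 (*Clec4f* and *Marco*). Leaving out each library in turn, that of *Adgre1* lay between -0.944 (without av05) and -0.485 (without av15). The interaction of *Cd163* was not called with the 4 groups fitted alone (adjusted p = 0.0755). Nor was it called without any of mice av02, av05, av14, av16 or av17 (adjusted p from 0.0503 to 0.0705).

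Over all 6 groups, mean *Cd163* fell in the order *Cse*-/- no-Cys (23.2 CPM), *Cse*+/- no-Trp (21.5 ± 1.21 CPM, SD, n = 3), *Cse*+/- control (19.2 ± 1.31 CPM, n = 2), *Cse*-/- no-Trp + BSO (18.1 ± 1.21 CPM, n = 4), *Cse*-/- no-Trp (16.4 ± 2.61 CPM, n = 3) and *Cse*+/- no-Cys (15.2 CPM). Neighbours in this order overlapped, apart from *Cse*+/- no-Trp over *Cse*+/- control, where 20.4 CPM was the lowest and 20.1 CPM the highest value. The level in *Cse*-/- no-Cys livers had a log2 fold change of 0.51 ± 0.181 over *Cse*-/- no-Trp livers, which did not pass the test (edgeR adjusted p = 0.0752). Without mouse av08 it was 0.62 and was called (adjusted p = 0.0287), and without av05 it was 0.33 (adjusted p = 0.258). These comparisons share the *Cse*-/- no-Cys livers with the comparison of genotypes. BSO, which lowers glutathione by another route, left *Cd163* with a log2 fold change of 0.14 (95% interval -0.23 to 0.52) against no-Trp alone.

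To see whether *Cd163* followed the amount of macrophage RNA, its log2 CPM was set against the mean of the other 9 markers in each liver, a comparison chosen after the data were seen. This difference was 1.38, 1.01, 1.13 and 0.49 in *Cse*-/- no-Cys livers. It was 0.08, -0.53, 0.22 and 0.25 in *Cse*+/- no-Cys livers. These ranges did not overlap. In the other groups the mean was 0.77 (*Cse*+/- control), 0.43 (*Cse*+/- no-Trp), 0.43 (*Cse*-/- no-Trp + BSO) and 0.13 (*Cse*-/- no-Trp). The 2 control livers, at 0.65 and 0.88, lay within the range of *Cse*-/- no-Cys livers, and the mean of *Cse*+/- no-Cys livers, at 0.00627, was the lowest of the 6 groups. *Cd163* was picked for its call, so that these values are a description and carry no test.

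**Figure D2:**
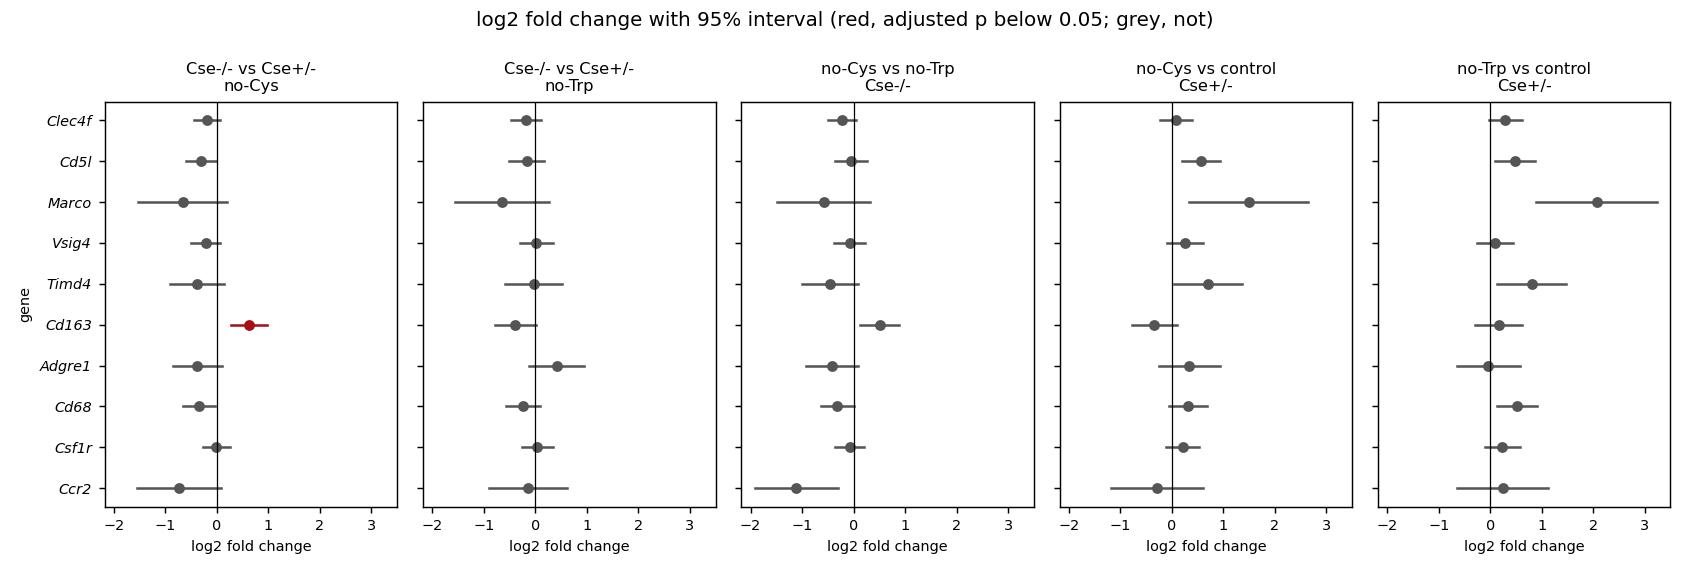
Log2 fold changes (horizontal axis, points) of the 10 marker genes (rows) with 95% intervals (lines) in 5 comparisons, with genes called at an adjusted p under 0.05 in red. *Cd163* on no-Cys (0.62) is the single called value, and *Marco* has the largest values against the control diet (1.49 and 2.06) with the widest intervals.

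Of the other 5 Kupffer cell markers, none passed the test of genotype on no-Cys. *Clec4f*, a lectin restricted to Kupffer cells in mice (ENSMUSG00000014542, chromosome 6, minus strand, 83644542 to 83656187), was at 94.7, 91.0, 73.3 and 73.3 CPM in *Cse*-/- no-Cys livers. In *Cse*+/- no-Cys livers it was at 83.9, 102, 105 and 89.2 CPM. The groups overlapped, and the log2 fold change was -0.19 (95% interval -0.44 to 0.06, edgeR adjusted p = 0.262), or -0.12 without av07 (adjusted p = 0.573). *Vsig4*, the complement receptor CRIg (ENSMUSG00000044206, chromosome X, minus strand, 96247203 to 96293438), was at 15.9 to 21.0 CPM in *Cse*-/- and 17.6 to 23.3 CPM in *Cse*+/- no-Cys livers. Its log2 fold change was -0.22 (95% interval -0.50 to 0.06, adjusted p = 0.245). Leaving out each library in turn, it lay between -0.30 and -0.15. The 95% intervals of both genes included 0. Over all 20 livers *Clec4f* ranged 1.68-fold from the lowest to the highest and *Vsig4* 1.53-fold.

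*Timd4* is a phosphatidylserine receptor that marks long-resident Kupffer cells, and *Cd5l* is a secreted protein of Kupffer cells also known as AIM. Both also had log2 fold changes below 0. *Timd4* (ENSMUSG00000055546, chromosome 11, plus strand, 46810800 to 46844332) was at 5.19, 4.47, 5.15 and 2.21 CPM in *Cse*-/- no-Cys livers. It was at 5.23, 6.77, 6.53 and 3.96 CPM in *Cse*+/- no-Cys livers. Mouse av08 had the lowest level of all 20 livers, and the log2 fold change was -0.39 ± 0.249 (edgeR adjusted p = 0.270), and -0.19 without this mouse (adjusted p = 0.589). *Cd5l* (ENSMUSG00000015854, chromosome 3, plus strand, 87357881 to 87371073) was at 77.2, 66.9, 59.2 and 85.7 CPM in *Cse*-/- no-Cys livers. It was at 91.7, 94.9, 99.3 and 72.5 CPM in *Cse*+/- no-Cys livers. The groups overlapped through mice av04, av05 and av08, and the log2 fold change was -0.31 ± 0.141 (95% interval -0.60 to -0.02, adjusted p = 0.119), and -0.21 without av07 (adjusted p = 0.349).

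*Marco*, a scavenger receptor for bacteria and particles (ENSMUSG00000026390, chromosome 1, minus strand, 120474538 to 120505024), varied most within groups. Over all livers it ranged 7.07-fold, from 2.72 to 19.2 CPM, and its SD within groups was 0.618 on the log2 scale, above that of 97.5% of 1644 genes of like level. In *Cse*-/- no-Cys livers it was at 4.13, 3.08, 2.86 and 10.4 CPM. In *Cse*+/- no-Cys livers it was at 13.6, 6.77, 7.0 and 5.1 CPM. Mouse av08 alone of the *Cse*-/- mice reached the *Cse*+/- range, and the log2 fold change was -0.67 ± 0.413 (edgeR adjusted p = 0.258). Without av08 it was -1.25 (adjusted p = 0.0250). Without the *Cse*+/- mouse av01, the highest of its group, it was -0.31 (adjusted p = 0.641). The sign was the same in each case, but the size turned on these 2 mice.

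*Ccr2*, the receptor by which monocytes follow the chemokine CCL2 into tissues (ENSMUSG00000049103, chromosome 9, plus strand, 124101950 to 124113557), turned on the same mouse, and 1.48% of its 61-base words occur in another gene. In *Cse*-/- no-Cys livers it was at 0.354, 0.733, 0.248 and 1.18 CPM. In *Cse*+/- no-Cys livers it was at 1.08, 1.13, 1.17 and 0.708 CPM. Mouse av08 again had the highest value of its group, above all *Cse*+/- no-Cys livers. The log2 fold change was -0.73 ± 0.393 with it (edgeR adjusted p = 0.185) and -1.22 without it (adjusted p = 0.0303). Without av07, the lowest of the *Cse*-/- no-Cys livers, it was -0.44 (adjusted p = 0.454). Against *Cse*-/- no-Trp livers, at 1.25, 1.56 and 1.2 CPM, all *Cse*-/- no-Cys livers were lower. That log2 fold change was -1.12 ± 0.386 with av08 (adjusted p = 0.0698) and -1.60 without it (adjusted p = 0.0108). *Ccr2* was also lower in all no-Trp + BSO livers, at 0.541, 1.07, 0.842 and 0.769 CPM, than in all *Cse*-/- no-Trp livers, without passing the test (log2 fold change -0.79 ± 0.356, adjusted p = 0.341).

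The general macrophage markers were not called either. *Cd68*, a protein of lysosomes (ENSMUSG00000018774, chromosome 11, minus strand, 69664213 to 69666153), was at 6.20, 8.29, 6.70 and 6.20 CPM in *Cse*-/- no-Cys livers. It was at 8.92, 8.75, 7.86 and 9.34 CPM in *Cse*+/- no-Cys livers. All but av06 were below all *Cse*+/- livers, and the log2 fold change was -0.35 ± 0.146 (95% interval -0.66 to -0.04, edgeR adjusted p = 0.0886). Without av06 it was -0.46 (adjusted p = 0.0434).

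*Adgre1*, which encodes the antigen F4/80 (ENSMUSG00000004730, chromosome 17, plus strand, 57358691 to 57483527), was at 6.14 to 12.3 CPM in *Cse*-/- and 10.1 to 17.5 CPM in *Cse*+/- no-Cys livers. Its log2 fold change was -0.38 ± 0.230 on no-Cys (edgeR adjusted p = 0.247) and 0.41 ± 0.257 on no-Trp (adjusted p = 0.409). The value on no-Cys was -0.15 without the *Cse*+/- mouse av03 (adjusted p = 0.681), which was at 17.5 CPM, and -0.20 without the *Cse*-/- mouse av07 (adjusted p = 0.585). On no-Trp all *Cse*-/- livers, at 10.4, 17.6 and 9.90 CPM, were above all *Cse*+/- livers, at 9.52, 9.79 and 8.88 CPM. *Csf1r*, the receptor for CSF1 and IL-34 (ENSMUSG00000024621, chromosome 18, plus strand, 61100598 to 61132149), had the narrowest range. It varied 1.46-fold over the 20 livers, from 34.2 to 50.1 CPM, and its log2 fold change on no-Cys was -0.01 (95% interval -0.28 to 0.25). Of the exon bases of *Csf1r*, 873 also lie in exons of *Hmgxb3* on the other strand, and 14.1% of its 61-base words occur in another gene, so that part of its reads may have been lost or shared.

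On the no-Trp diet the markers were compared between genotypes in the same way. Here 0 of 10 passed the edgeR test, where 2.64% of all genes did. At an unadjusted p under 0.05 there were 0, against 18.4% of all genes, and DESeq2 also called 0, against 4.92% of all genes. The median log2 fold change was -0.16, with 3 markers above 0 and 7 below, and values ran from -0.65 (*Marco*) to 0.41 (*Adgre1*). Groups did not overlap for *Cd163*, lower in *Cse*-/-, and for *Adgre1*, higher in *Cse*-/-, where 9.51% and 10.1% of all genes were lower and higher without overlap.

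To ask what cysteine loss did beyond the loss of another amino acid, *Cse*-/- livers on no-Cys were compared with those on no-Trp. Of the 10 markers, 0 were called by edgeR, where 10.4% of all genes were, and 2 had an unadjusted p under 0.05 (*Ccr2* and *Cd163*), as did 26.5% of all genes. DESeq2 called 1, *Cd163*, where it called 14.4% of all genes. Values were below 0 for 9 of 10 markers, the median being -0.27 on the log2 scale, and ran from -1.12 (*Ccr2*) to 0.51 (*Cd163*, the single value above 0). When BSO was added to no-Trp, 0 of 10 were called by edgeR and by DESeq2, which called 0.793% and 2.8% of all genes. In edgeR 1 marker (*Ccr2*) had an unadjusted p under 0.05, as did 13% of all genes. With BSO the log2 fold changes ran from -0.79 (*Ccr2*) to 0.37 (*Marco*), 3 of 10 being above 0. *Ccr2* was also the single marker lower without overlap in each of these comparisons, where this held for 9.83% and 6.13% of all genes.

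When the BSO group was compared with *Cse*-/- no-Cys livers, 0 of 10 markers were called by edgeR and by DESeq2. These tests called 2.75% and 6.44% of all genes. *Marco* and *Cd163* were the 2 with an unadjusted p under 0.05, where 20% of all genes had one. *Marco* was at 8.92, 12.8, 9.05 and 8.74 CPM with BSO, above all *Cse*-/- no-Cys livers but av08. Its log2 fold change was 0.95 ± 0.400 (edgeR adjusted p = 0.190), and 1.54 without av08 (adjusted p = 0.0193). For *Cd163* it was -0.37 ± 0.165 (adjusted p = 0.223), or -0.18 without av05 (adjusted p = 0.625), and the other 8 markers lay between -0.01 (*Csf1r*) and 0.33 (*Ccr2*).

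The shift of diet itself was seen in *Cse*+/- mice, which keep the enzyme. Against the control diet, edgeR called 0 of 10 markers on no-Cys, where it called 2.18% of all genes, and 3 markers had an unadjusted p under 0.05 (*Cd5l*, *Marco* and *Timd4*), as did 16.6% of all genes. DESeq2 called 1, *Cd5l*, where it called 4.68% of all genes. On no-Trp, edgeR called 0 of 10 and DESeq2 0, where these tests called 0.0474% and 0.441% of all genes. In edgeR 4 markers had an unadjusted p under 0.05 (*Marco*, *Cd68*, *Cd5l* and *Timd4*), as did 9.29% of all genes. The control group of 2 mice limits what these tests can call.

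Most values in these comparisons were above 0, for 8 of 10 markers on no-Cys and 9 of 10 on no-Trp, with medians of 0.28 and 0.27 on the log2 scale. They ran from -0.34 (*Cd163*) to 1.49 (*Marco*) on no-Cys and from -0.04 (*Adgre1*) to 2.06 (*Marco*) on no-Trp. All no-Trp livers were above both control livers for 7 of 10 markers, where this held for 12.8% of all genes. All no-Cys livers were above both control livers for 4 of 10 markers, where it held for 13.2% of all genes. Both comparisons rest on the same pair of control livers, and the markers vary together, so that these counts are not independent of each other. At unscaled library totals the control group's levels of all genes were lower, since the TMM factors of its 2 libraries were 0.932 and 0.903. *Marco*, *Vsig4*, *Cd163* and *Csf1r* were then at 2.61, 16.0, 17.6 and 32.1 CPM.

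*Marco* had the largest difference of the 10 from the control diet. It was at 2.97 and 2.72 CPM in the control livers, at 8.10, 8.47 and 19.2 CPM in *Cse*+/- no-Trp livers and at 5.1 to 13.6 CPM in *Cse*+/- no-Cys livers. The ranges did not overlap. The log2 fold change was 2.06 ± 0.564 on no-Trp (unadjusted p = 0.00161, edgeR adjusted p = 0.244) and 1.49 ± 0.553 on no-Cys (unadjusted p = 0.0138, adjusted p = 0.166). With no filter on low counts both were called, at adjusted p of 0.00968 and 0.0376. *Cd5l* was at 53.9 and 66.7 CPM in the control livers, below all *Cse*+/- livers on either other diet, with a log2 fold change of 0.57 ± 0.177 on no-Cys (adjusted p = 0.0948).

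Between the no-Cys and no-Trp diets in *Cse*+/- mice, 0 of 10 markers were called by edgeR and by DESeq2. These tests called 8.04% and 10.2% of all genes. *Cd163* had the single unadjusted p under 0.05, where 24.4% of all genes had one, with a log2 fold change of -0.50 ± 0.180 (adjusted p = 0.0920). All no-Cys livers, at 10.3 to 19.3 CPM, were below all no-Trp livers, at 20.4 to 22.8 CPM. *Cd68* was likewise lower and *Adgre1* higher in all no-Cys than in all no-Trp livers, where 8.56% and 10.5% of all genes were lower and higher without overlap. The 10 log2 fold changes ran from -0.57 (*Marco*) to 0.37 (*Adgre1*).

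Because CD163 binds haemoglobin, genes of the same route were set beside it. The haem oxygenase *Hmox1*, which breaks down the haem that such uptake brings in, was on the list of other Kupffer cell genes. It was at 20.7, 14.7, 15.3 and 21.2 CPM in *Cse*-/- no-Cys livers and at 12.9, 10.7, 13.1 and 9.34 CPM in *Cse*+/- no-Cys livers. These ranges did not overlap, and the log2 fold change was 0.65 ± 0.174 (edgeR adjusted p = 0.0109). On no-Trp *Hmox1* was at 15.6 to 20.6 CPM in *Cse*-/- and 17.4 to 30.8 CPM in *Cse*+/- livers. The interaction of genotype and diet was 1.09 ± 0.258 for *Hmox1* (adjusted p = 0.0199). *Hmox1* was lower on no-Cys than on no-Trp in *Cse*+/- mice, by -1.04 ± 0.182 on the log2 scale (adjusted p = 0.0025), whereas in *Cse*-/- mice the value was 0.06 ± 0.180 (adjusted p = 0.883). For *Cd163* these values were -0.50 and 0.51, and neither passed the test. *Hmox1* is not particular to macrophages, and which cells its reads came from cannot be told in whole liver. The study, for muscle, also names *Hmox1* as a target of NRF2, a transcription factor of the oxidative stress response. The part of NRF2 in these values was not tested.

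The globin genes, which mark red blood cells, went the other way on no-Cys. *Hbb-bs* was at 38.5, 36.3, 33.4 and 52.5 CPM in *Cse*-/- no-Cys livers and at 226, 112, 178 and 98.6 CPM in *Cse*+/- no-Cys livers. The groups did not overlap, and the log2 fold change was -1.94 ± 0.336 (edgeR adjusted p = 0.000438). All 5 red blood cell genes tested were lower, *Alas2*, the first enzyme of haem synthesis in red cells, by -1.48 on the log2 scale. The summed CPM of the red blood cell list was 69.1 to 114 in *Cse*-/- and 201 to 407 in *Cse*+/- no-Cys livers. On no-Trp this sum was also lower, at 119 to 184 in *Cse*-/- and 211 to 258 in *Cse*+/- livers. There *Hbb-bs* had a log2 fold change of -0.67 (edgeR adjusted p = 0.356), and *Cd163* likewise lay below 0, at -0.39 (adjusted p = 0.279). The pairs *Hbb-bs* and *Hbb-bt*, and *Hba-a1* and *Hba-a2*, are near-identical copies between which reads may have been split. Haptoglobin (*Hp*), added after the values were seen, had a log2 fold change of -0.46 ± 0.304 (adjusted p = 0.288), and hemopexin (*Hpx*), which binds free haem and was added likewise, one of -0.07 ± 0.238 (adjusted p = 0.871). The part of blood in the livers, or of haem, in the level of *Cd163* was not tested.

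**Figure D3:**
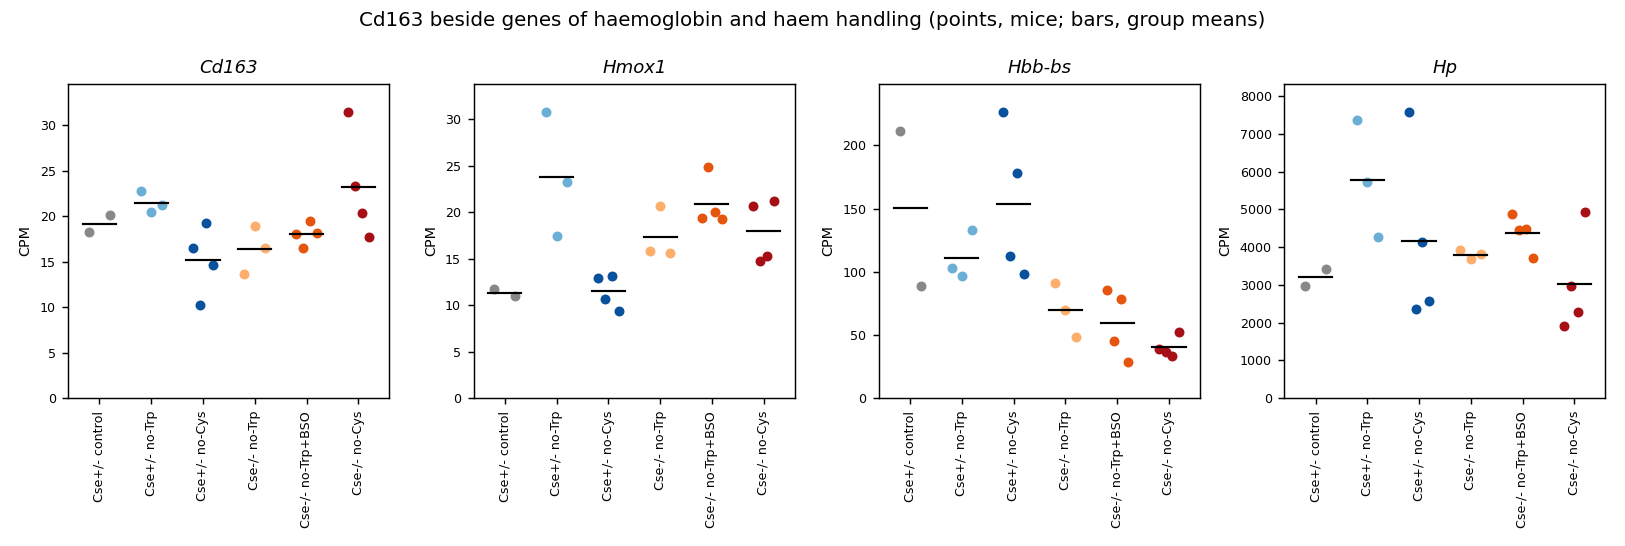
CPM (vertical axes, from 0) of *Cd163*, *Hmox1*, *Hbb-bs* and *Hp* in each of 20 livers (points) with group means (bars), in the 6 groups of genotype and diet. On no-Cys, *Hmox1* is higher in all *Cse*-/- (14.7 to 21.2 CPM) than in all *Cse*+/- livers (9.34 to 13.1 CPM) and *Hbb-bs* is lower (33.4 to 52.5 against 98.6 to 226 CPM), while the highest *Hmox1* value of all (30.8 CPM) is in a *Cse*+/- no-Trp liver.

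Other genes of the same cells were taken from lists drawn up with the markers. Of 14 other Kupffer cell genes, 5 fell and 1 rose in *Cse*-/- against *Cse*+/- no-Cys livers, where 12.2% of all genes tested fell and 11.6% rose, and the median was -0.12 on the log2 scale. The riser was *Hmox1*. *Folr2*, a folate receptor, fell by 0.50 ± 0.156, from 9.69 to 11.6 CPM in *Cse*+/- to 5.71 to 8.58 CPM in *Cse*-/- livers. *C1qa* and *C1qc*, chains of complement C1q, fell by 0.35 ± 0.107 and 0.32 ± 0.104 on the log2 scale (edgeR adjusted p = 0.0217 and 0.0337). *C1qa* was at 52.4 to 57.1 CPM in *Cse*+/- and 34.9 to 47.0 CPM in *Cse*-/- livers, without overlap. The summed level of the list overlapped, at 531 to 571 CPM in *Cse*-/- and 532 to 603 CPM in *Cse*+/- livers.

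Of 16 other macrophage genes, 5 fell and 0 rose, with a median of -0.32. The summed level of this list did not overlap, at 276 to 389 CPM in *Cse*-/- and 415 to 551 CPM in *Cse*+/- no-Cys livers. *Aif1*, which encodes IBA1, fell by 1.30 ± 0.247 on the log2 scale (edgeR adjusted p = 0.000867), from 3.97 to 5.43 CPM to 1.25 to 2.30 CPM. The chemokine receptor *Cx3cr1*, a gene of monocyte-derived cells, fell by 1.30 ± 0.430 and stayed at or below 1.13 CPM in all libraries. The Fc receptor chain *Fcer1g* fell by 0.57 ± 0.179.

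Of the ligands of the receptors among the markers, *Csf1* and *Il34* were tested, and *Ccl2*, *Ccl7* and *Ccl12* had too few counts. *Csf1*, which with IL-34 signals through CSF1R, was at 4.07 to 6.49 CPM in *Cse*-/- and 6.49 to 9.59 CPM in *Cse*+/- no-Cys livers, ranges that met at their ends. It fell by 0.69 ± 0.183 on the log2 scale (edgeR adjusted p = 0.0103), while *Csf1r* did not pass the test. *Csf1* was also lower in *Cse*-/- no-Cys than in *Cse*-/- no-Trp livers, by -0.89 (adjusted p = 0.00665), and lower in *Cse*+/- no-Cys than in *Cse*+/- no-Trp livers, by -0.73 (adjusted p = 0.0204). *Il34* had a log2 fold change of 0.34 between genotypes on no-Cys (adjusted p = 0.260) and was lower in *Cse*+/- no-Cys than in control livers, by -1.0 (adjusted p = 0.0315). *Ccl2* was at most 0.607 CPM in any library.

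Genes of incoming or activated cells were few and low. Of 10 monocyte and neutrophil genes, 5 were tested and 1, *Plac8*, fell in *Cse*-/- no-Cys livers, by 0.65 on the log2 scale at an edgeR adjusted p of 0.0499. Of 8 inflammatory mediators 2 were tested, *Il1b* and *Nlrp3*, and 0 were called on no-Cys between genotypes by edgeR, *Nlrp3* having an unadjusted p of 0.0321. *Il1b*, the cytokine interleukin-1β, was higher on no-Trp in either genotype. It was at 2.24 to 3.52 CPM in *Cse*-/- and 2.38 to 3.06 CPM in *Cse*+/- no-Trp livers, against 0.236 to 0.733 CPM and 0.564 to 1.32 CPM on no-Cys. Its log2 fold change of no-Cys over no-Trp was -2.57 ± 0.345 in *Cse*-/- mice (adjusted p = 0.000187) and -1.80 ± 0.328 in *Cse*+/- mice (adjusted p = 0.00314). With BSO it was at 0.680 to 1.4 CPM, a log2 fold change of -1.42 ± 0.296 against no-Trp alone (adjusted p = 0.0251).

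Of 6 genes of lipid-associated macrophages, 2 fell and 1 rose between genotypes on no-Cys. *Spp1*, which encodes osteopontin, fell from 37.5 to 45.6 CPM to 11.8 to 20.4 CPM, by 1.38 ± 0.185 on the log2 scale (edgeR adjusted p = 3.96e-05). *Cd9* fell by 1.68 ± 0.225. The fatty acid transporter *Cd36* rose from 24.3 to 30.9 CPM to 175 to 229 CPM, by 2.89 ± 0.181 (adjusted p = 1.51e-08). *Cd9* and *Cd36* were also called between genotypes on no-Trp, with log2 fold changes of -1.15 and 2.61. *Trem2* and *Gpnmb*, the receptors that define such macrophages, did not pass on no-Cys, with log2 fold changes of -0.14 (adjusted p = 0.814) and 1.08 (adjusted p = 0.198). *Spp1*, *Cd9* and *Cd36* are also expressed by other cells of the liver.

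Markers of other cells moved in the same comparison. Of 12 T, NK and B cell genes, 7 were tested and 1 (*Cd79b*) fell, with -0.83 as the median log2 fold change and a summed level of 2.54 to 3.45 CPM in *Cse*-/- and 3.34 to 7.27 CPM in *Cse*+/- livers. Of 10 sinusoidal endothelial genes, *Fcgr2b* fell by 0.40 and *Lyve1*, a receptor for hyaluronan, rose by 1.15 ± 0.185. Of 9 stellate cell genes, *Lrat* and *Col3a1* fell. Of 8 hepatocyte genes, 4 fell and 1 rose, and their summed level was 42180 to 73240 CPM in *Cse*-/- against 87270 to 114100 CPM in *Cse*+/- no-Cys livers. Of 4 cholangiocyte genes tested 1 (*Sox9*) fell, and of 4 dendritic cell genes tested edgeR called 0, with 0 at an unadjusted p under 0.05. No gene of any list was at 0 in all libraries. Over the 92 genes of these lists that were tested, 28 fell and 4 rose, where 12.2% of all genes fell and 11.6% rose, with a median of -0.32, close to that of the 10 markers. Whether the shift in hepatocyte or blood transcripts has a part in the values of the markers was not tested.

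The markers were also compared liver by liver. Across the 20 livers, which share their libraries and scaling, the highest Pearson correlations of log2 CPM between markers were those of *Adgre1* with *Csf1r* (r = 0.763), *Cd5l* with *Vsig4* (r = 0.752) and *Cd5l* with *Marco* (r = 0.746). With group means removed these were 0.863, 0.755 and 0.759, so that they held within groups. *Clec4f* and *Timd4* had r = 0.614. *Cd163* had r = -0.10 with the mean of the other Kupffer cell markers, where the other 5 lay between 0.484 and 0.736. With group means removed its r was 0.23, and the other 5 lay between 0.355 and 0.896. *Cd163* and *Cd68* had the lowest value of all 45 pairs (r = -0.34). These values describe 20 libraries and carry no test.

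**Figure D4:**
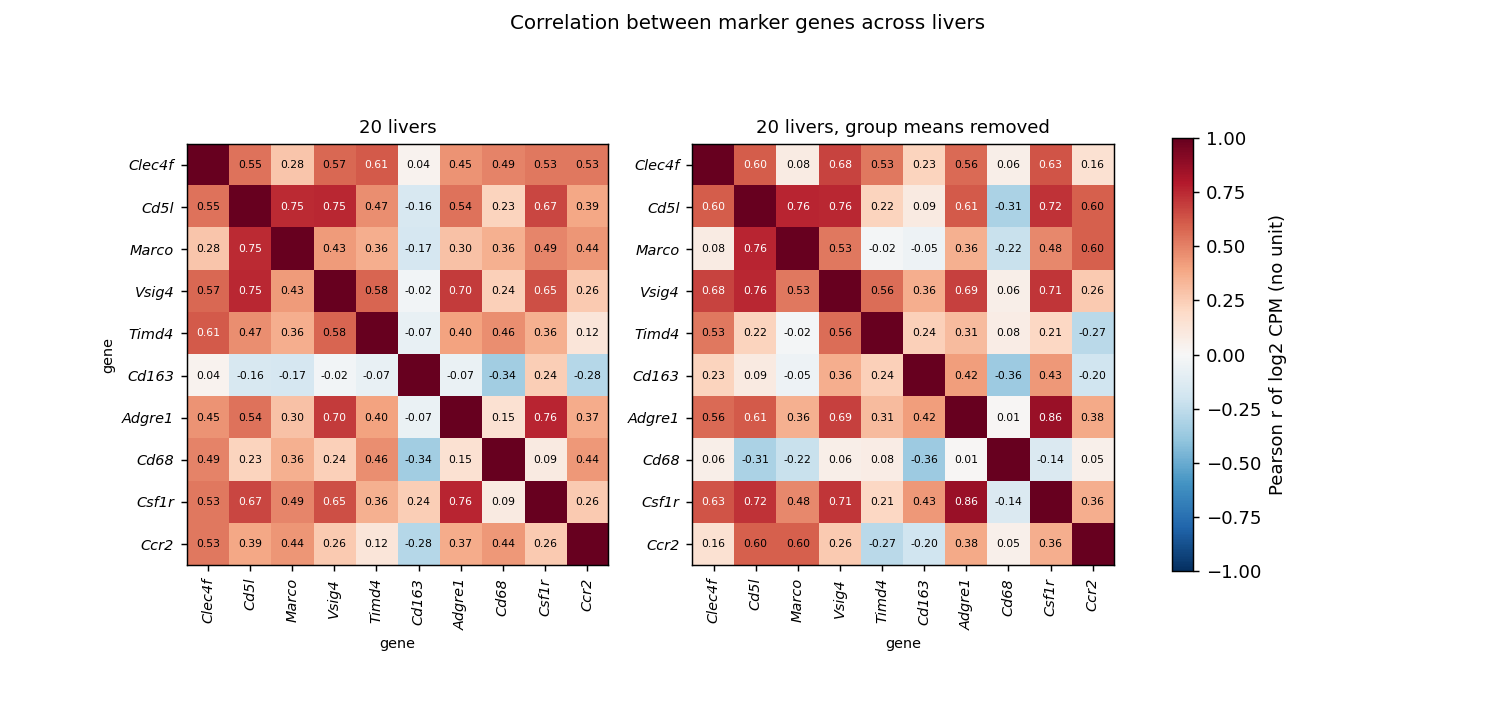
Pearson correlations (colour and number, from -1 to 1, no unit) of log2 CPM between the 10 marker genes (rows and columns) across 20 livers, as measured (left) and with group means removed (right). *Adgre1* and *Csf1r* have the highest value (0.76 and 0.86), and the row of *Cd163* is pale or blue on the left.

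Among 12572 genes with a mean of at least 1 CPM, those whose log2 CPM most resembled the mean of the 6 Kupffer cell markers over the 20 livers were *Cd44* (r = 0.871), a hyaluronan receptor of leukocytes, *Cfp* (r = 0.83), which encodes properdin, and *C1qc* (r = 0.809). They were followed by *Laptm5* (0.784), *Ctla2b* (0.777), *Lyz2* (0.763), *Rac2* (0.754), *Adgre4* (0.752), *Cd53* (0.751) and *Filip1l* (0.739). Of these 10 genes, *C1qc*, *Laptm5* and *Lyz2* were on the lists of Kupffer cell and macrophage genes. With group means removed, *Cd44* (0.853) and *Cfp* (0.785) remained among the first 5, together with *Nckap1l* (0.80), *Hmcn2* (0.796) and *Fam49a* (0.791).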

How the data were processed

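Total RNA of whole liver was isolated with trizol and mRNA was sequenced. The authors aligned reads to GRCm38 with Hisat2 2.1.0 and counted them on genes with HTSeq 0.11.0, per the labels and the submitters' processing notes, and deposited raw counts without normalization. Which annotation they counted on is not stated in the sources used here. Columns were assigned to groups through the study's list of mice, and 1 column that the list does not place was not used. The deposited columns of the table hold counts alone.

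Differential expression was tested with edgeR 4.0.16 (limma 3.58.1, R 4.3.3). Low genes were dropped with filterByExpr (at a count of 10 and a total of 15), libraries were scaled by TMM, and 1 quasi-likelihood fit held all 20 libraries and 6 group means. Two-sided p-values were adjusted over all 14759 genes (Benjamini-Hochberg), with a threshold of 0.05. Correlations used log2 CPM with a prior count of 2. The script was tested on simulated data. Same-group libraries differed by more than counting noise (chi-square per gene 9.60 to 64.2 over 25 pairs). The labels do not say that mice came from separate litters or days.

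The markers and lists were chosen with earlier results of these data known. The 10 markers are described in every comparison, by value or by the range of their fold changes, and from each other list up to 4 called genes with the largest changes, or the gene with the smallest p. The values of 1 list gene are not reported here. *Hp*, *Hpx* and *Cth* were added after values were seen. Alternatives were DESeq2 1.42.0, RLE factors, unscaled totals, other filters, thinning, fits of only the groups compared, a threshold of 0.01 and leaving out each library. Coordinates come from GENCODE on GRCm38. Figures used Python 3.11.15 with matplotlib 3.10.9.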

Additional observations from a re-analysis of the deposited data

Results flagged for a closer look

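In 3 of the 30 sets of values of a marker in a group of 4 livers, 1 liver stood far from the other 3 by Dixon's test. Chance alone flags about 1 in 20 such sets. *Marco* was at 10.4 CPM in mouse av08 of the *Cse*-/- no-Cys group, where the next liver was at 4.13 CPM. *Marco* was at 12.8 CPM in mouse av10 of the no-Trp + BSO group, where the next was at 9.05 CPM. *Adgre1* was at 17.5 CPM in mouse av03 of the *Cse*+/- no-Cys group, where the next was at 10.9 CPM.

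For 1 of the 10 markers and 5 of the 92 other list genes tested, the effect of genotype differed between the no-Cys and no-Trp diets by edgeR's test of the interaction, which called 4.36% of all genes. This difference of log2 fold changes was 1.01 for *Cd163*, 1.09 for *Hmox1*, 1.30 for *Lyve1*, -0.997 for *Alb*, -0.813 for *Ttr* and -1.12 for *Alas2*.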

How the results depend on the processing

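DESeq2 called 1 marker between no-Cys and no-Trp in *Cse*-/- mice (*Cd163*, 0.51, adjusted p = 0.0484), where edgeR called 0. It called 1 between no-Cys and control in *Cse*+/- mice (*Cd5l*, 0.57, 0.0411), where edgeR also called 0. DESeq2 called 14.4% and 4.68% of all genes in these comparisons. Without a filter on low counts, 1 marker was called in no-Cys against control (*Marco*) and 1 in no-Trp against control (*Marco*). There was also 1 in no-Cys against no-Trp in *Cse*+/- mice (*Cd163*, -0.52, 0.0472). This setting called 1.77%, 0.259% and 4.35% of all genes in these comparisons. At an adjusted p under 0.01, 0 markers were called between genotypes on no-Cys and 0 in the interaction of genotype and diet. With only the groups compared, both counts were also 0. Between genotypes on no-Cys these settings called 12.6% and 22.1% of all genes, and in the interaction 1.08% and 2.63%. Unscaled library totals were chosen after seeing the data and move the median of all genes between genotypes on no-Cys to 0.15. They gave 1 called marker between no-Cys and no-Trp in *Cse*-/- mice (*Cd163*, 0.595, 0.0386), where 11.8% of all genes were called.

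Leaving out each library gave 0 to 3 called markers between genotypes on no-Cys, 0 to 1 in the interaction, 0 to 2 between no-Cys and no-Trp in *Cse*-/- mice, 0 to 1 between BSO and no-Cys (*Marco*), and 0 to 1 between no-Cys and control in *Cse*+/- mice (*Cd5l* without av04, 0.67, 0.0469). In these fits edgeR called 18.1 to 23.7% of all genes between genotypes on no-Cys, 2.37 to 7.8% in the interaction, 4.65 to 12.6% between no-Cys and no-Trp in *Cse*-/- mice, 0.352 to 6.97% between BSO and no-Cys, and 0.0655 to 2.84% between no-Cys and control, the lowest without control mouse av22. The highest share was that without av08 in each of the first 4 of these comparisons. The log2 fold change of *Csf1r* between genotypes on no-Cys changed sign with thinned counts (0.0144), with unscaled totals (0.149), and among the fits without a library (-0.064 to 0.11). That of *Cd163* stayed above 0, at 0.45 to 0.76 without each library in turn. The cause was not tested where a call changed with the setting. No paired analysis was possible because the columns of counts carry no replicate numbers of the labels. *Ccr2*, at 4 to 45 counts per library, is limited by depth, and the 2 control livers limit every comparison with them.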
